A study of Rattus norvegicus with 40 samples.

Results

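The genes described here are 10 genes of the elastic fibre and its microfibril scaffold: Eln, Fbn1, Fbn2, Mfap2, Mfap4, Mfap5, Fbln5, Lox, Loxl1 and Ltbp1. They were chosen by gene symbol, as the genes that carry these symbols in the platform annotation, out of 14217 genes tested. All 10 were measured, by 13 probe sets (each a cluster of short DNA probes read as 1 signal), since Eln, Fbn1 and Lox had 2 each. Expression was measured on 40 Affymetrix arrays of Wistar rat embryos in 4 groups of 10 arrays: whole lung at gestational day 20 (E20), whole lung at day 16 (E16), whole intestine at E20 and whole intestine at E16. By the labels, several siblings' tissue was frozen and the design counts 10 embryos at each age, so whether an array holds 1 embryo or a pool, and whether the arrays of an age share a litter, is not settled by them. In 38 of the 40 arrays either Xist, made in females, or the Y-linked Eif2s3y was above a log2 intensity of 7, and in the other 2 both were (lung E16 replicate 1 and intestine E16 replicate 6). Lung was labelled from 2 µg of RNA and intestine from 1 µg, so tissue and RNA amount cannot be told apart. If arrays of an age share a pool, part of the spread that the p-values measure may be technical. If they share a litter, that spread holds no variation between litters.

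An elastic fibre has a core of cross-linked elastin laid down on a sheath of fibrillin microfibrils. Cells secrete soluble tropoelastin, the product of Eln, which is gathered on microfibrils with the help of fibulins and then cross-linked by lysyl oxidases into an insoluble, recoiling polymer. Microfibrils also occur without elastin, and they hold the growth factor TGF-beta in a latent form through its binding proteins. In the lung, elastic fibres lie in airways, vessels and the tips of forming alveolar septa and give the organ its recoil after birth; in the intestine they lie in vessel walls, the submucosa and the muscle coat.

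In the lung, 6 of the 10 genes rose with age and none fell: elastin, its assembly factor Fbln5, Mfap4, Mfap5 and both lysyl oxidases. In the intestine none rose and 5 fell: both fibrillins, Mfap2, Loxl1 and Ltbp1. Loxl1 moved in opposite directions in the 2 organs. The 4 genes with the greatest rises in lung (Eln, Mfap5, Fbln5 and Mfap4, 4.67-fold to 6.67-fold) were not among those that fell in intestine. Calls required a change of at least 2-fold and, in a limma fit to the log2 intensities of all 40 arrays, a p below 0.05 after Benjamini-Hochberg adjustment over the 14217 genes. Over all genes 7.15% were called higher and 4.63% lower at E20 in lung, and 8.79% higher and 6.26% lower in intestine. The arrays of the 2 ages did not overlap for those 6 genes in lung (15.2% of all genes, higher at E20), nor for the 5 and Lox in intestine (20.3% of all genes, lower at E20). Without the fold minimum 2 of the 10 would also be lower in lung (33.7% of all genes) and 1 higher in intestine (29.5%). The median change of the 10 genes was 1.33 in lung, where that of all genes was -0.0064, and -1.0 in intestine, where it was -0.086 (log2). In whole-organ RNA, fewer cells of a type and less RNA per cell cannot be told apart.

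**Figure D1:**
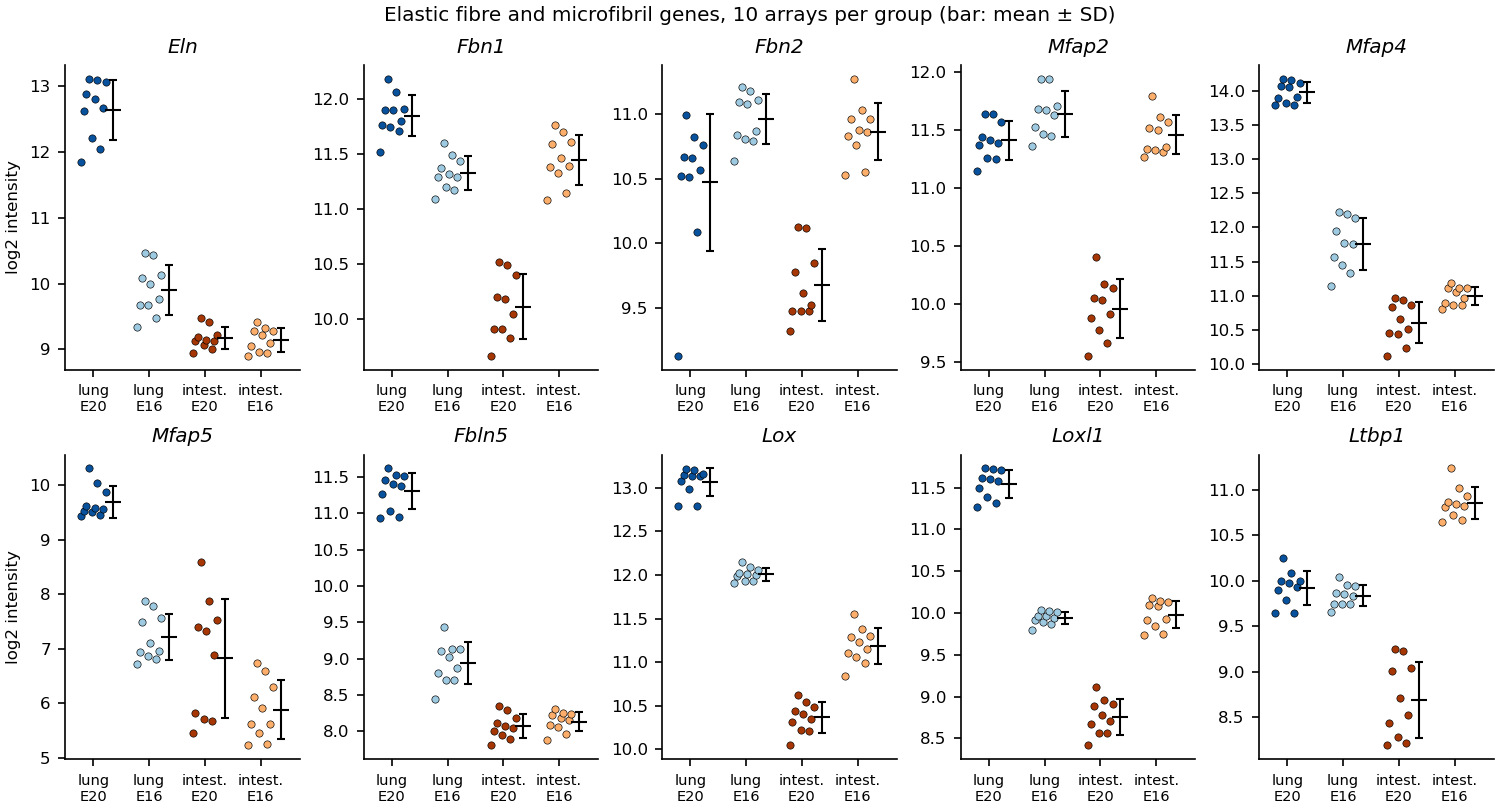
Log2 intensity (vertical axis, its own range in each panel) of the 10 genes in each array, by group; points are arrays, and the bar beside them gives the mean ± SD of 10 arrays. Eln, Mfap4, Mfap5 and Fbln5 lay highest in lung E20, and Fbn1, Fbn2, Mfap2, Loxl1 and Ltbp1 lay lower in intestine E20 than in intestine E16.

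Promoter sequences from RefSeq (build GRCr8) were at hand for 7 of the 10 genes. The promoters of 2 genes that rose in lung and were not called in intestine (Fbln5 and Mfap5) are shown with those of 2 that fell in intestine and were not called in lung (Ltbp1 and Mfap2), because these stand for the 2 behaviours. Each runs 5′ to 3′ on the gene's strand from 250 bases before to 50 bases after the annotated start. They lie at chr6:126742657-126742956 on the minus strand (Fbln5), chr4:157399669-157399968 on the plus strand (Mfap5), chr6:26177252-26177551 on the minus strand (Ltbp1) and chr5:158597478-158597777 on the plus strand (Mfap2). Capitals mark every match, on either strand, to 6 motifs: the TATA box as TATAAA, the GC box as GGGCGG, the CCAAT box as CCAAT, the cyclic AMP response element as TGACGTCA, the SMAD box as CAGAC and the TEAD site as CATTCC. The CArG box was searched too.
Fbln5: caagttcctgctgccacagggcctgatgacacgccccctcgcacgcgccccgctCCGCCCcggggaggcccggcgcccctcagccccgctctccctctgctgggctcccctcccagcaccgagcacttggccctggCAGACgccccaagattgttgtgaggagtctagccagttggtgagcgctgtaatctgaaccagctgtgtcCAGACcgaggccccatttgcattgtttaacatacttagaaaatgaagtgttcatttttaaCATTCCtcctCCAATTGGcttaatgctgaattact
Mfap5: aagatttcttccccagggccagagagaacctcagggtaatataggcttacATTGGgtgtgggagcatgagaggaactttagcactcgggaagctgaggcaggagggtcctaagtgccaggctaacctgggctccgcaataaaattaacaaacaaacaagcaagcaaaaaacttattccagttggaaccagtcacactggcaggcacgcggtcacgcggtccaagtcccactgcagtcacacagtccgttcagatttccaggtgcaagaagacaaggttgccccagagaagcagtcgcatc
Ltbp1: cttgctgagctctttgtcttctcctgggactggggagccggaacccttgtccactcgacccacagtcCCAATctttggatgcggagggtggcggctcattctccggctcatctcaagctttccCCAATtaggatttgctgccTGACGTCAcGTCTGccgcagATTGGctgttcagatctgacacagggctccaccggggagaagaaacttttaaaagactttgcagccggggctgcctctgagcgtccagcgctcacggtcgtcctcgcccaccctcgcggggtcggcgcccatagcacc
Mfap2: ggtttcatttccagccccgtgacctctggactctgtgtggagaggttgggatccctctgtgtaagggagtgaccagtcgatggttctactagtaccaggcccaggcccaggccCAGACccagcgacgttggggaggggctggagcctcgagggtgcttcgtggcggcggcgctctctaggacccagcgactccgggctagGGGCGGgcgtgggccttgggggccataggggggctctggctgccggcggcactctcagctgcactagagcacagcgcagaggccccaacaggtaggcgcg
The window of Ltbp1 held TGACGTCA at position -108, counted with -1 as the base before the start, and 1.91% of 27457 rat promoters of the same length hold this motif. The SMAD box occurred in Fbln5 (-114 and -45), Ltbp1 (-99, as GTCTG) and Mfap2 (-137), and 50% of all promoters hold it. CATTCC stood in Fbln5 at position 16, against 13.9% of all promoters, and GGGCGG in Fbln5 (-196, as CCGCCC) and Mfap2 (-50), against 34.9%. CCAAT stood in Mfap5 (-200, as ATTGG) and Ltbp1 (-183, -127 and, as ATTGG, -88). In Fbln5 the CCAAT matches of the 2 strands (26 and 29) overlap, and 37.7% of all promoters hold CCAAT. None of the 4 windows held TATAAA (14.3% of all promoters) or a CArG box (1.64%), which says only that these letters are absent from 300 bases.

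Elastin showed the largest change of the 10 in lung. Eln had log2 intensities of 11.85 to 13.11 in lung E20 (median 12.74), against 9.34 to 10.46 in lung E16 (median 9.89). The arrays of the 2 ages did not overlap. The mean was 12.64 ± 0.46 at E20 and 9.90 ± 0.38 at E16 (SD, n = 10 arrays each), a change of 2.74 (SE 0.14, 6.67-fold, limma adjusted p = 8.77e-21), which ranked 146 of 14217 genes from the greatest rise. In intestine Eln ran from 8.94 to 9.47 at E20 (median 9.14) and from 8.90 to 9.42 at E16 (median 9.15). These overlapped throughout: the change was 0.02, with a 95% interval of -0.26 to 0.30 (limma adjusted p = 0.888). On this probe set the order of the groups was therefore lung E20, lung E16 and then the 2 intestinal groups, which did not differ beyond their spread. A second, dimmer probe set for Eln disagreed in size and in part in direction. It averaged 8.22 in lung E20 and 7.74 in lung E16, a change of 0.48 (SE 0.10) that was not called. Its intestinal means were 7.47 at E20 and 7.83 at E16 (-0.36), so that it placed intestine E16 slightly above lung E16.

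In lung E20 the elastin signal varied with the array. Replicates 8, 6 and 1 were lowest for Eln, at 11.85, 12.04 and 12.22, and the other 7 arrays ran from 12.63 to 13.11. The same 3 arrays were lowest for Fbln5 (10.94, 11.03 and 10.95, against 11.26 to 11.62) and for Mfap4 (13.79, 13.79 and 13.82, against 13.89 to 14.17). Replicates 1 and 8 carried more liver transcripts, with mean log2 levels over 6 liver markers of 9.32 and 9.40, against 6.32 to 6.69 in the other 8 arrays. Replicate 6 was highest for 6 mesothelial markers, at 10.60, against 9.25 to 9.83. Lung epithelial markers were lowest in the same 3 arrays (12.97, 12.72 and 12.86, against 13.18 to 13.54). Without these 3 arrays and 4 intestinal ones that also held more transcripts of other tissues, the lung change of Eln was 2.99, that of Fbln5 2.51 and that of Mfap4 2.30. The 3 lung arrays were the lowest for these genes, so leaving them out could only raise the changes. Replicate 7, highest for 4 skeletal muscle markers (8.22, against 6.53 to 7.51), was kept. No lung E16 array was left out here. In those arrays the liver markers averaged 7.59 to 8.92 and the skeletal muscle markers 7.06 to 8.91. The part of other tissue at E16 in these changes was not tested.

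**Figure D2:**
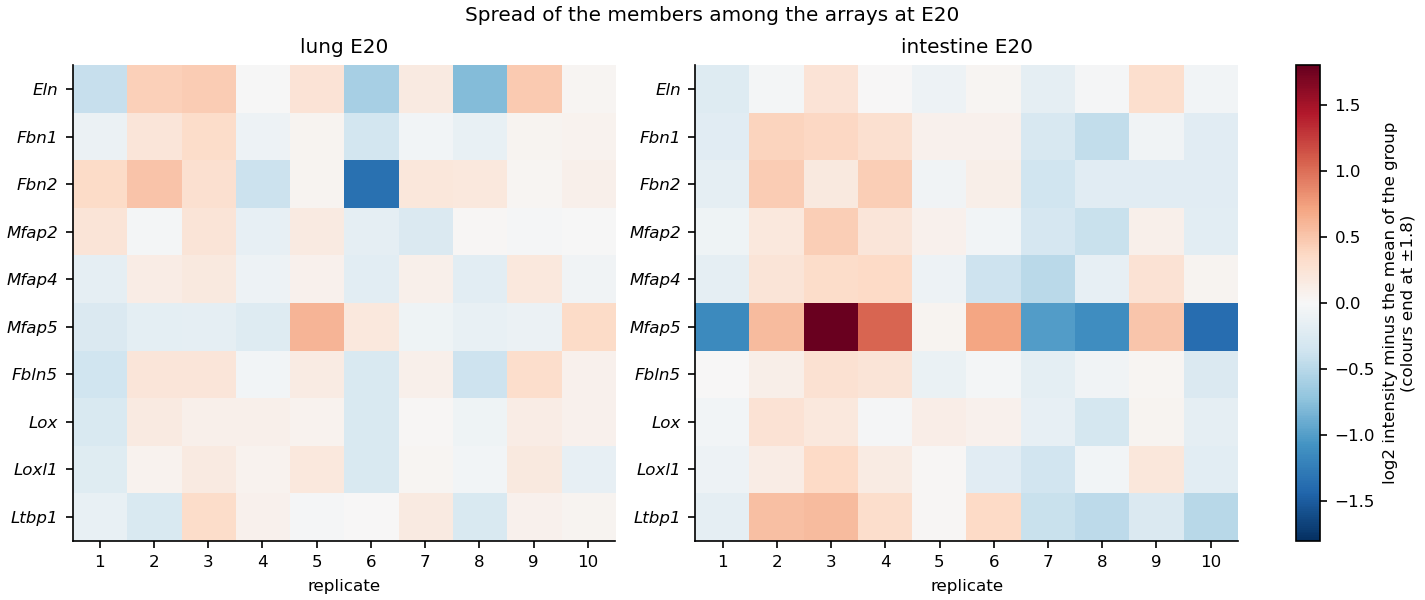
Log2 intensity of each gene minus the mean of its group, in the 10 arrays of lung E20 and of intestine E20 (columns are replicates; red is above and blue below the mean). Eln was low in lung replicates 1, 6 and 8, Fbn2 was low in lung replicate 6, and Mfap5 had the widest spread in intestine.

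The fibrillins, which polymerise into the microfibril itself, fell in intestine. Fbn1, the fibrillin mutated in human Marfan syndrome, ran from 9.67 to 10.52 in intestine E20 (median 10.12) and from 11.08 to 11.76 in intestine E16 (median 11.42). No array of E20 reached the lowest of E16, and the change was -1.33 (SE 0.096, 2.51-fold lower, limma adjusted p = 5.52e-16). Its second probe set gave -1.25, called too. Its lung values ran from 11.52 to 12.18 at E20 (median 11.85) and from 11.09 to 11.60 at E16 (median 11.30), overlapping slightly, with a change of 0.52 (SE 0.096, limma adjusted p = 6.92e-06) that missed the 2-fold minimum.

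Fbn2, known in mouse and human as the fibrillin made mainly before birth, ran from 9.32 to 10.13 in intestine E20 (median 9.57) and from 10.53 to 11.27 in intestine E16 (median 10.87). The ages did not overlap, and the change was -1.19 (SE 0.14, 2.28-fold lower, limma adjusted p = 1.02e-09). Lung values ran from 9.13 to 10.99 at E20 (median 10.62) and from 10.64 to 11.21 at E16 (median 10.98), and its change of -0.49 (SE 0.14, limma adjusted p = 0.00249) missed the 2-fold minimum. One array, lung E20 replicate 6, held the value of 9.13 and the next lowest was 10.09; without that array the change was -0.34. For both fibrillins lung E16 and intestine E16 differed by less than their spread (-0.12 for Fbn1 and 0.10 for Fbn2), and intestine E20 was the lowest group.

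Whether related genes changed unequally was tested on their log2 difference within each array, which compares changes and not levels. A two-sided permutation test (100000 resamples) was used, with Benjamini-Hochberg adjustment over 8 tests. Wherever the 2 ages did not overlap, it gave the same permutation adjusted p of 8e-05 whatever the size of the change. That p thus does not rank the changes. In lung the difference Fbn2 minus Fbn1 was -1.38 ± 0.42 at E20 and -0.36 ± 0.13 at E16 (SD, n = 10 each). It dropped by 1.02 with no overlap between arrays (permutation adjusted p = 8e-05), so the balance moved to Fbn1. In intestine the same difference was -0.44 ± 0.14 at E20 and -0.58 ± 0.22 at E16, and its change of 0.14 did not pass (permutation adjusted p = 0.11); without the 7 arrays with other tissue it was 0.17 and passed narrowly (permutation adjusted p = 0.042). Eln minus Fbn1 rose in both organs: to 0.79 ± 0.32 at E20, against -1.42 ± 0.25 at E16, in lung (change 2.21), and to -0.95 ± 0.27 at E20, against -2.30 ± 0.11 at E16, in intestine (change 1.35), each with a permutation adjusted p of 8e-05. The rise relative to Fbn1 in intestine stood beside an Eln that was flat on its brighter probe set and a lower Fbn1. The second Eln probe set changed by 0.48 in lung, where Fbn1 changed by 0.52. The lung rise of the difference thus rests on the brighter Eln set. In intestine the second Eln set changed by -0.36 and Fbn1 by -1.33.

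**Figure D3:**
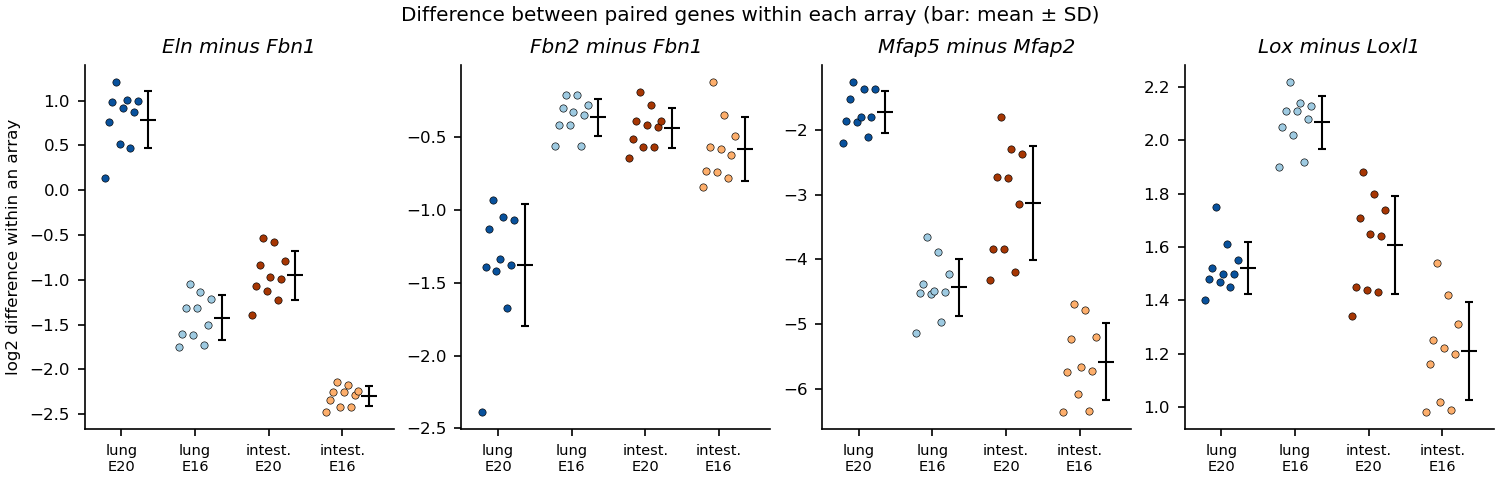
Log2 difference between 2 genes within each array (vertical axis, its own range in each panel), by group; points are arrays and bars give the mean ± SD of 10 arrays. Values are from the brightest probe set of each gene. Eln minus Fbn1 and Mfap5 minus Mfap2 were higher at E20 in both organs, and Fbn2 minus Fbn1 was lower at E20 in lung, with no overlap between ages.

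Of the 3 microfibril-associated genes, Mfap4 and Mfap5 rose in lung and were not called in intestine, and Mfap2 was called in intestine alone, as lower. Mfap2 encodes MAGP-1, a small glycoprotein on nearly all fibrillin microfibrils. It ran from 9.55 to 10.40 in intestine E20 (median 9.97) and from 11.27 to 11.79 in intestine E16 (median 11.43). The ages were separate, with a change of -1.5 (SE 0.087, 2.84-fold lower, limma adjusted p = 4.77e-19). In lung Mfap2 ran from 11.15 to 11.64 at E20 (median 11.40) and from 11.36 to 11.94 at E16 (median 11.65), largely overlapping, with a change of -0.23 (SE 0.087). Lung E16, intestine E16 and lung E20 were thus close to each other, and intestine E20 stood apart below them.

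Mfap4 encodes a fibrinogen-like protein that binds elastin and fibrillin. Its lung values ran from 13.79 to 14.17 at E20 (median 13.98) and from 11.14 to 12.22 at E16 (median 11.77). All E20 arrays lay above all E16 arrays, and the change was 2.22 (SE 0.11, 4.67-fold, limma adjusted p = 1.08e-20). In intestine it ran from 10.12 to 10.97 at E20 (median 10.59) and from 10.81 to 11.18 at E16 (median 11.01), overlapping, with a change of -0.39 (SE 0.11, limma adjusted p = 0.00221) that was not called.

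Mfap5 encodes MAGP-2, the relative of MAGP-1 with a more restricted distribution. Lung arrays held 9.43 to 10.31 at E20 (median 9.57) and 6.72 to 7.88 at E16 (median 7.03). The ages did not overlap, and the change was 2.48 (SE 0.28, 5.59-fold, limma adjusted p = 2.73e-10). The probe set was dim in the other 3 groups, below the median of all log2 values (7.89) in all but 1 of their 30 arrays. In intestine Mfap5 ran from 5.45 to 8.60 at E20 (median 7.10) and from 5.23 to 6.74 at E16 (median 5.76), the widest spread of any of the 10 genes (SD 1.1 at E20). Its change of 0.95 (SE 0.28) fell short of 2-fold and passed it when any 1 of 6 intestinal arrays was left out (1.02 to 1.10). Replicates 1, 7, 8 and 10 of intestine E20 stood at 5.45 to 5.82 and the other 6 at 6.88 to 8.60. In these 4 arrays the mean of 10 smooth muscle markers was 10.85 to 11.12, against 11.08 to 11.78 in the other 6, and Ltbp1 was 8.19 to 8.52, against 8.43 to 9.25. The mean of 7 fibroblast markers was 10.94 to 11.15 in these 4 arrays, against 11.23 to 11.51 in the other 6. Fbn1 and Mfap2 were also lower in these 4 arrays than in the other 6. The split was drawn from the Mfap5 values themselves, and how many genes or marker lists part along it was not counted. The part of either cell type in the spread of Mfap5 was not tested.

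Mfap5 minus Mfap2 rose in both organs. In lung it was -1.72 ± 0.32 at E20 and -4.43 ± 0.44 at E16, and in intestine -3.13 ± 0.88 at E20 and -5.58 ± 0.60 at E16 (SD, n = 10 each). The arrays did not overlap in either organ, and the changes of 2.71 and 2.45 each had a permutation adjusted p of 8e-05. The rise in intestine stood beside a lower Mfap2 (-1.5) and a change of Mfap5 of 0.95. That Mfap5 change was not called and lay between 2 dim levels (6.83 and 5.88).

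Fbln5 encodes fibulin-5, which binds tropoelastin, microfibrils and lysyl oxidase-like 1 and is needed for elastic fibre assembly in mice. In lung it ran from 10.94 to 11.62 at E20 (median 11.39) and from 8.44 to 9.44 at E16 (median 8.95). The gap between the ages was wider than the range of either, and the change was 2.37 (SE 0.096, 5.17-fold, limma adjusted p = 5.26e-24). In intestine it ran from 7.81 to 8.35 at E20 (median 8.06) and from 7.88 to 8.31 at E16 (median 8.17), with a change of -0.06 and a 95% interval of -0.26 to 0.13 (limma adjusted p = 0.578). Its order of groups was that of Eln. Over the 4 group means, each centred on their mean, Fbln5 and Mfap4 had the most alike patterns of any pair of the 10 genes (root mean square difference 0.13 log2 units), followed by Eln and Fbln5 (0.14) and Eln and Mfap4 (0.23).

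Both cross-linking enzymes rose in lung. Lox encodes lysyl oxidase, the copper enzyme that oxidises lysines of elastin and collagen. In lung it ran from 12.79 to 13.22 at E20 (median 13.13) and from 11.91 to 12.15 at E16 (median 12.01). The ages did not overlap, but the change of 1.05 (SE 0.072, 2.08-fold, limma adjusted p = 1.24e-16) was close to the 2-fold minimum, and was 0.97 and not called with arrays centred on their median. In intestine Lox ran from 10.05 to 10.63 at E20 (median 10.38) and from 10.84 to 11.55 at E16 (median 11.19). There too the ages did not overlap, and the change was -0.82 (SE 0.072, limma adjusted p = 1.77e-13), under 2-fold and not called. The second Lox probe set gave 1.11 in lung and -0.82 in intestine.

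Loxl1 encodes lysyl oxidase-like 1, which in mice is tied to elastin renewal. It was the only 1 of the 10 genes called in opposite directions in the 2 organs. In lung it ran from 11.27 to 11.73 at E20 (median 11.59) and from 9.80 to 10.03 at E16 (median 9.95), a change of 1.60 (SE 0.073, 3.03-fold, limma adjusted p = 2.48e-22). In intestine it ran from 8.42 to 9.12 at E20 (median 8.75) and from 9.74 to 10.18 at E16 (median 10.00), a change of -1.22 (SE 0.073, 2.33-fold lower, limma adjusted p = 1.14e-18). Neither organ showed an overlap between ages, and the 2 organs at E16 did not differ beyond their spread. The difference Lox minus Loxl1 fell in lung, to 1.52 ± 0.10 at E20 against 2.07 ± 0.10 at E16, and rose in intestine, to 1.61 ± 0.18 at E20 against 1.21 ± 0.18 at E16 (SD, n = 10 each; permutation adjusted p = 8e-05 and 0.00039); the ages overlapped in intestine only. Loxl1 thus moved further than Lox in each organ.

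Ltbp1 encodes latent TGF-beta binding protein 1, which ties latent TGF-beta to fibrillin microfibrils. It had the largest fall of the 10 genes. In intestine it ran from 8.19 to 9.25 at E20 (median 8.61) and from 10.65 to 11.24 at E16 (median 10.83). The ages were separate, and the change was -2.17 (SE 0.11, 4.50-fold lower, limma adjusted p = 3.53e-21), which ranked 88 of 14217 genes from the greatest fall. Its lung values ran from 9.65 to 10.25 at E20 (median 9.96) and from 9.66 to 10.04 at E16 (median 9.84), nearly coinciding, with a change of 0.08 and a 95% interval of -0.14 to 0.30 (limma adjusted p = 0.508). Its order was unlike that of the other 9, with intestine E16 highest, the 2 lung groups together below it and intestine E20 lowest.

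**Figure D4:**
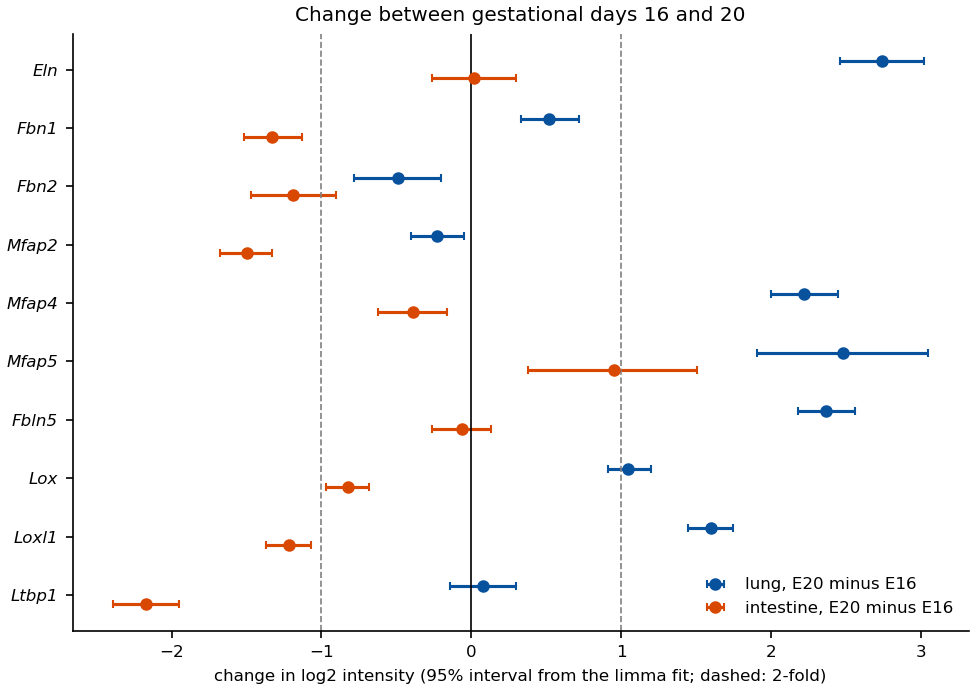
Change in log2 intensity between ages (E20 minus E16) of each gene in lung (blue, upper point) and intestine (orange, lower point), with the 95% interval from the limma fit; dashed lines mark a 2-fold change. For every gene the lung point lies to the right of the intestine point, from 0.69 apart for Fbn2 to 2.82 apart for Loxl1.

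The difference between the organs in the change with age was tested directly, as the lung change minus the intestine change. It was positive for all 10 genes and was called for 9, whereas 9.13% of all genes were called in this direction and 8.48% in the other. It was greatest for Loxl1 (2.82, SE 0.10, limma adjusted p = 1.41e-25), Eln (2.71, SE 0.20), Mfap4 (2.62, SE 0.16) and Fbln5 (2.43, SE 0.14). The second Eln probe set gave 0.84, not called. Ltbp1 followed with 2.26 (SE 0.15), then Lox with 1.88 and Fbn1 with 1.85. The smallest called differences were those of Mfap5 (1.54, SE 0.40, limma adjusted p = 8.33e-04) and Mfap2 (1.28, SE 0.12). Fbn2 differed by 0.69 (SE 0.20, limma adjusted p = 0.00267) and was not called. The same difference thus arose in several ways. Fbln5, and Eln on its brighter probe set, rose in lung beside a flat intestine. The second Eln set changed by 0.48 in lung and -0.36 in intestine, neither called. Ltbp1 fell in intestine beside a flat lung, and Loxl1 rose in lung and fell in intestine. The median over the 10 genes was 2.07, and that of all genes 0.032.

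At E20, 9 of the 10 genes were higher in lung than in intestine and none was lower, against 7.91% of all genes higher and 8.21% lower. The lung and intestine arrays of E20 did not overlap for these 9 genes, which 15.5% of all genes showed in this direction. The differences were 3.47 for Eln (SE 0.14, 11.1-fold, limma adjusted p = 1.03e-24), 3.37 for Mfap4 (10.4-fold), 3.23 for Fbln5 (9.41-fold) and 2.87 for Mfap5 (7.30-fold). The second Eln probe set gave 0.75, not called. Loxl1 (2.78) and Lox (2.70) came next, and the microfibril genes Fbn1 (1.73), Mfap2 (1.46) and Ltbp1 (1.24) were smallest. Fbn2 was 0.79 higher in lung and not called.

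At E16 the organs were much closer. Of the 10 genes 1 was called higher in lung, Mfap5 (1.33, SE 0.28, limma adjusted p = 9.29e-05, with overlapping arrays), and 1 lower, Ltbp1 (-1.02, SE 0.11, limma adjusted p = 1.80e-10, with none), against 2.13% of all genes higher and 3.0% lower. Ltbp1 was the 1 gene of the 10 with all lung arrays below all intestine arrays (11.0% of all genes), and Fbln5 and Lox the 2 with all above (8.23%); 5 of the 10 would be higher without the fold minimum (23.8%). Of the 730 genes called in all, 41.5% were higher in lung; with arrays centred on their median this was 52.9% of 733, since centring moved the median difference of all genes to 0.044, against -0.11 as deposited. The Mfap5 difference lay between 2 dim levels (7.21 and 5.88), was 0.85 and not called with an offset of 50 added before the log, and did not pass a test against a 2-fold change. The Ltbp1 difference was with centring -0.87 and not called; it was -0.98 with the offset, also -0.98 when intestine E16 replicate 2 alone was left out, and did not pass the 2-fold test either. Lox (0.82), Fbln5 (0.80), Eln (0.76) and Mfap4 (0.76) were higher in lung by less than 2-fold. With its second probe set Lox was called higher (1.25), as with both averaged (1.04), and Eln was -0.09 with its second. Fbn1 (-0.12), Fbn2 (0.10), Mfap2 (0.18) and Loxl1 (-0.04) lay near no difference. The tissue comparisons share their arrays with the age comparisons.

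Genes with the pattern most like that of a member were found among 3826 called, bright genes with an established symbol, by the root mean square difference of the 4 centred group means. For Eln these were Akr1c15 (0.111 log2 units), Lypd2 (0.128) and Fbln5 (0.141), so that another gene of the elastic fibre was the third nearest. For Fbn2 they were Abi2 (0.022), Ikbip (0.035) and Zfp532 (0.040). For Ltbp1 they were Zmat1 (0.118), Htr2c (0.125) and Sardh (0.158). The measure rests on 4 group means and is a description.

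Of 34 listed further genes of elastic fibres and microfibrils, 30 were measured. In lung 5 of the 30 rose and none fell, where 7.15% of all genes rose, and their median change was 0.32, against -0.0064 over all genes. They were Ltbp2, which binds fibulin-5 (2.02, SE 0.097, limma adjusted p = 1.74e-21), Efemp1, fibulin-3 (1.48), the proteoglycan biglycan, Bgn (1.23), Adamtsl2, a secreted protein found on microfibrils (1.08), and the integrin subunit Itga8 (1.08). In intestine none rose and 5 of the 30 fell, where 6.26% of all genes fell, and their median was -0.42, against -0.086 over all genes. They were Efemp1 (-2.25, SE 0.14, limma adjusted p = 1.84e-18), the proteoglycan versican, Vcan (-1.93), Itga8 (-1.83), fibulin-2, Fbln2 (-1.28), and fibulin-4, Efemp2 (-1.21). Itga8 in lung and Efemp2 in intestine fall outside the rule for named genes and were added after their values were seen. The difference between the organs was called for 11 of the 30, all towards lung (9.13% of all genes), with a median of 0.85 against 0.032 over all genes. It was led by Efemp1 (3.73, SE 0.19) and Itga8 (2.91, SE 0.14). Efemp1 averaged 9.95 in lung E20 and 8.47 in lung E16, and 7.58 in intestine E20 and 9.83 in intestine E16 (log2), so that the organ in which it was higher changed between ages.

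**Figure D5:**
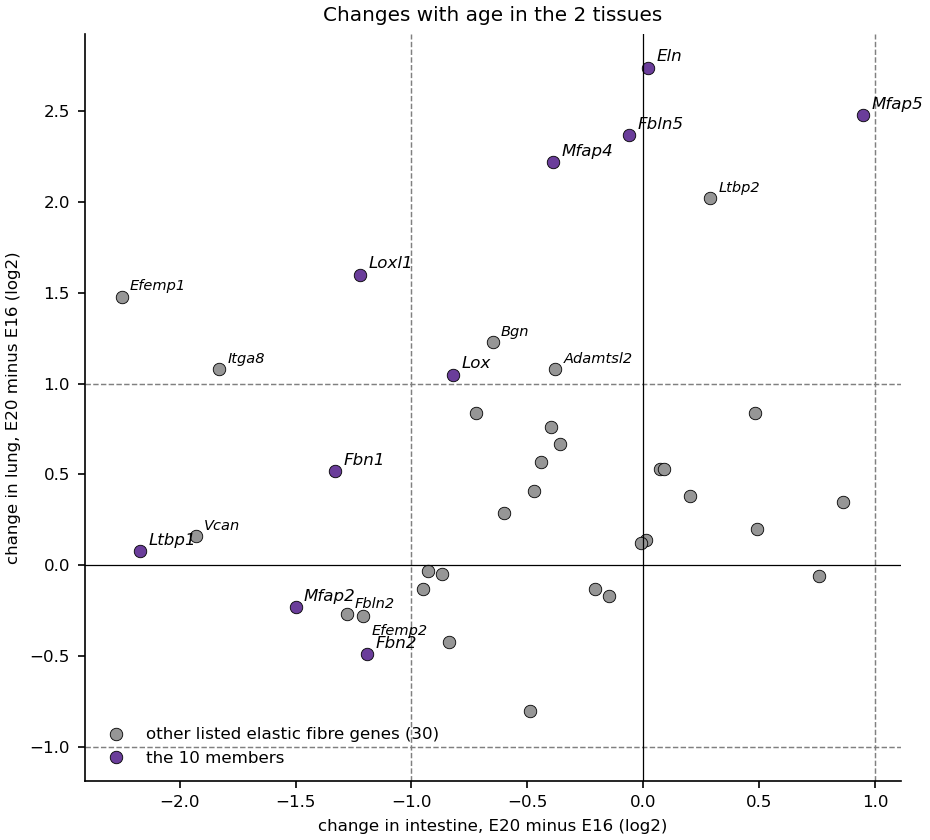
Change with age (E20 minus E16, log2) in lung (vertical) against that in intestine (horizontal) for the 10 genes (purple) and 30 further elastic fibre and microfibril genes (grey); dashed lines mark a 2-fold change, and grey points are named where a change was called. Loxl1, Efemp1 and Itga8 lie past 2-fold upwards in lung and downwards in intestine, and no point lies past 2-fold in the opposite corner.

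Between the organs, 11 of the 30 were higher in lung and 2 lower at E20 (7.91% and 8.21% of all genes), and 2 were higher and 2 lower at E16 (2.13% and 3.0% of all genes). Decorin, Dcn, a small proteoglycan that binds fibrillar collagen, was lower in lung at both ages. It averaged 9.46 in lung E20 and 12.37 in intestine E20 (difference -2.90, SE 0.19), and 9.27 in lung E16 and 11.87 in intestine E16 (-2.61). The other gene lower at E20 was Adamtsl5 (-1.54, SE 0.075), and the other lower at E16 was Efemp1 (-1.36, SE 0.14). Bgn was higher in lung at both ages (3.25 at E20 and 1.36 at E16, SE 0.16), as was hemicentin 1, Hmcn1 (2.26 at E20 and 1.38 at E16, SE 0.15). Adamtsl5, and the second age of Efemp1, Bgn and Hmcn1, were added after their values were seen.

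Of 15 listed enzymes that can cut elastin and their inhibitors, 13 were measured. In lung 4 of the 13 rose and none fell (7.15% and 4.63% of all genes), with a median of 0.25 (all genes -0.0064). These were the metalloproteinase inhibitors Timp3 (2.14, SE 0.13, limma adjusted p = 4.57e-18) and Timp2 (1.07), the cathepsin inhibitor Cst3 (1.23) and cathepsin S, Ctss (1.24). In intestine 4 rose and 2 fell (8.79% and 6.26% of all genes), with a median of 0.03 (all genes -0.086). The rises were in alpha-1-antitrypsin, Serpina1 (2.90, SE 0.29), Ctss (2.34), the leukocyte protease inhibitor Slpi (1.76) and cathepsin L, Ctsl (1.71); Mmp2 (-1.03) and Timp1 (-1.11), named after their values were seen, fell. Serpina1 is also a liver marker, and the 6 liver markers averaged 9.16 in intestine E20 and 8.04 in intestine E16 (log2); the part of liver RNA was not tested. Serpina1 (-3.35, SE 0.41) and Timp3 (2.68, SE 0.19) were the greatest differences between the organs in the change with age. At E20, 3 of the 13 were higher in lung than in intestine (Timp3, 1.82; Mmp2, 1.79; Timp2, 1.55) and 3 were lower (Serpina1, -3.53; Slpi, -2.86; Ctsl, -1.32); all of these but Serpina1 and Slpi were named after their values were seen. At E16 Slpi alone was called (-1.78).

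Of 15 listed genes of TGF-beta signalling, 11 were measured. Itgb6, the subunit of an epithelial integrin that activates latent TGF-beta, rose in both organs (3.88 in lung and 4.05 in intestine, SE 0.15 each). Its probe set was dim at E16, averaging 6.11 in lung and 4.94 in intestine, below the median of all log2 values, so the sizes of these rises are limited by background. In lung it was joined by the TGF-beta-induced genes Tgfbi (1.20) and Ccn2 (1.07), so that 3 of 11 rose (7.15% of all genes), and none was called lower. The ligands Tgfb2 (-0.74, limma adjusted p = 4.93e-08) and Tgfb3 (-0.72, limma adjusted p = 2.86e-08) were lower in lung by less than 2-fold. In intestine the ligands Tgfb3 (-2.43, SE 0.10, limma adjusted p = 2.96e-24) and Tgfb2 (-2.21, SE 0.10) fell beside Ltbp1, 2 of 11 genes (6.26% of all genes). The median of the list was 0.45 in lung and -0.17 in intestine, against -0.0064 and -0.086 over all genes. Between the organs, the changes differed most for Tgfb3 (1.71) and Tgfbi (1.67); Tgfb2 (1.85) and Ccn2 (1.49) were higher in lung at E20, Tgfbi was lower in lung at E16 (-1.68). Itgb6 was called higher in lung at E16 (1.17) between 2 dim levels with overlapping arrays.

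Markers of the cells that make elastic fibres, and of others, moved as follows. The counts stand against 7.15% of all genes called higher and 4.63% lower at E20 in lung. In intestine these shares were 8.79% and 6.26%. The tissue labels fitted their markers: 5 lung epithelial markers averaged 13.20 in lung E20 and 8.80 in lung E16, and 6.77 and 6.65 in intestine E20 and E16 (log2), and 5 intestinal epithelial markers averaged 12.66 and 7.53 in intestine E20 and E16, and 6.48 and 6.61 in lung. Of 10 smooth muscle and myofibroblast markers 2 rose in lung, 1 fell in intestine, and their mean ran from 9.42 to 9.83 in lung E20, against 8.98 to 9.38 in lung E16, and from 10.85 to 11.78 in intestine E20, against 10.79 to 11.49 in intestine E16. Of 7 fibroblast markers 2 rose in lung and 2 fell in intestine, with means of 11.49 in lung E20 and 11.09 in lung E16, and 11.25 in intestine E20 and 11.76 in intestine E16. Of 5 pericyte and vascular wall markers 1 rose in lung, and 1 rose and 1 fell in intestine. Their means were 8.77 in lung E20 and 8.23 in lung E16, and 8.34 in intestine E20 and 8.44 in intestine E16. Of 6 mesothelial markers 2 rose and 1 fell in lung, and 2 rose and 2 fell in intestine. In lung 3 of 5 endothelial markers (median 1.31) and 4 of 5 general epithelial markers (median 1.43) rose, beside the rises of the elastic fibre genes. In intestine all 5 general epithelial markers rose (median 3.19), beside the falls of the microfibril genes. Of 4 erythroid markers 3 fell in intestine, with means of 9.63 at E20 and 13.39 at E16, and 2 fell in lung, with means of 11.17 at E20 and 12.78 at E16. Of 9 cartilage markers 3 fell in lung and 4 in intestine, and in 2 lung E16 arrays (replicates 5 and 9) cardiac muscle markers averaged 12.42 and 13.00, against 6.95 to 9.41 in the other 8. Leaving out those 2 arrays gave the same count of 6 higher in lung, and 2.74 for Eln. The 5 lower in intestine stayed too, but these lung arrays cannot alter the size of an intestinal change. The part of a shift between cell types in the changes was not tested.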

How the data were processed

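Expression was measured on 40 Affymetrix arrays, 10 per group, grouped by sample title. The deposited values are normalized intensities on a linear scale for 31099 probe sets; RMA is named, per the submitters' processing notes, with no version; no source used here says if lung and intestine were normalized jointly. Deposited intensities ran from 6.651 to 39901, with array medians of 219.9 to 263.7; the number of arrays limits the precision. The planned test assumed log2 values, so log2 was taken first. For each of 14217 genes the brightest probe set on average was used, among 20832 with 1 symbol in the platform annotation (436 had several and 9831 none). Of these, 20764 were matched by Entrez identifier to RefSeq genes of GRCr8, used for current names.

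A mean per group was fitted with limma 3.58.1 (R 4.3.3) without covariates, and 5 contrasts were taken, with p-values adjusted over all genes. SE and 95% intervals come from this fit. Its check on simulated data drew independent normal values, and so says nothing on shared litters, other tissue or disagreeing probe sets. Pair balances used scipy 1.17.1. The members, gene lists, marker lists and 7 arrays left out in an alternative were chosen with earlier results of these data known. Named genes are all members; of each list, called genes with the largest change (up to 4 per age comparison, 2 in others); and the 3 genes nearest to Eln, Fbn2 and Ltbp1. Alternatives covered probe sets, scaling, an offset of 50, filters, thresholds, weights, variance moderation, the replicate block and arrays left out. Equal replicate numbers of lung and intestine were not taken as pairs, since not every pair's deviations from the group means correlated above 0.1. At E20, 4 of 10 pairs did, 2 correlated best with their own number, and the sex-linked transcripts Xist and Eif2s3y matched in 4 pairs and differed in 6. At E16, 7 of 10 pairs did, 5 correlated best with their own number, and these transcripts matched in 8 pairs, differed in 1 and were undecided in 1.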

Additional observations from a re-analysis of the deposited data

Results flagged for a closer look

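Fbn2 in lung E20 replicate 6 stood at 9.13, far below the next array of its group (10.09) and the group's highest (10.99). Among the 40 gene and group combinations examined it was the only 1 with such a gap, and chance flags about 1 in 20. In the same array 6 mesothelial markers averaged 10.60, the highest of the group; the part of other tissue in the low value was not tested.

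The change with age differed between lung and intestine for 9 genes, by the test of the difference itself in the limma fit. The lung change minus the intestine change was 2.71 for Eln, 1.85 for Fbn1, 2.43 for Fbln5, 1.28 for Mfap2, 2.62 for Mfap4, 1.54 for Mfap5, 1.88 for Lox, 2.82 for Loxl1 and 2.26 for Ltbp1.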

How the results depend on the processing

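Among recomputed changes and differences of single genes, 792 kept their direction and their side of the threshold, 18 became called, 15 lost their call and 10 turned sign. The counts of 6 higher in lung, 5 lower in intestine, 9 higher in the difference between organs and 9 higher in lung at E20 stayed within 1.5 times of these values under every alternative run. With no fold minimum, 2 members were lower in lung, 1 was higher in intestine and 5 were higher in lung at E16. In intestine 1 member, Mfap5, was also called higher with quantile normalization (1.13), array weights (1.04) or without the 7 arrays with other tissue (1.11), and 0 to 1 when single arrays were left out (without replicates 5 or 6 of E16 or 1, 7, 8 or 10 of E20). At E16, members higher in lung numbered 2 with averaged or with the dimmer probe sets (Lox added) and 0 with the offset, in bright genes only (where Mfap5 was not tested) or in a test against a 2-fold change; members lower numbered 0 with centred arrays, the offset or that test, and 0 to 1 when single arrays were left out. The cause of these shifts was not tested. Signs turned as follows: Eln in intestine (0.02 as reported) was -0.17 with averaged probe sets, -0.36 with the dimmer one, -0.03 with array weights and -0.01 to 0.05 when single arrays were left out; at E16 Eln (0.76 as reported) was -0.09 with the dimmer probe set, Fbn1 was 0.02 averaged, 0.17 with the dimmer set and 0.03 centred, and Loxl1 was 0.11 centred and 0.02 without the 7 arrays. With the dimmer probe set Eln lost its calls in lung (0.48), in the difference (0.84) and at E20 (0.75). The test against a 2-fold change removed the calls of Lox in lung, Fbn2 in intestine, Ltbp1 at E20 and Mfap2 and Mfap5 in the difference. The balance Fbn2 minus Fbn1 in intestine was 0.17 and passed without the 7 arrays. Over all genes, 1674 were called in lung and 2140 in intestine, against 9478 and 10159 with no fold minimum and 1037 in lung against a 2-fold change; at E16 730 were called, against 476 bright genes.

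The replicate block took equal replicate numbers of the 2 tissues together (consensus correlation 0.107), and a fixed block took the number alone. With either, the counts stayed 6 higher in lung, 5 lower in intestine, 9 in the difference and 9 at E20. At E16 they stayed 1 higher and 1 lower. Each number stands once in each group, so either block leaves the size of every change as it was and alters only its SE. The unchanged counts thus do not test whether equal numbers are pairs. Of 20 lung arrays, 7 correlated best with their own number. Mfap5 was dim in 3 groups, and differences between dim values are limited by background.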
